A study of Glycine max with 10 samples.

Results

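Genes for negative regulators of ethylene signalling were followed through the first day of soybean germination. They were 4 ethylene receptor genes (Glyma12g37050, Glyma09g00490, Glyma19g40090 and Glyma20g36440), 4 CTR kinase genes (Glyma14g36140, Glyma13g21480, Glyma10g07610 and Glyma03g34890) and 2 EBF F-box genes (Glyma14g14410 and Glyma17g31940). The 10 genes were chosen by identifier from those the study assigns to these families, out of 54154 genes with values, and no threshold on the values was applied here. The study shows genes of these families that it counts as expressed in these samples. Being expressed was therefore part of the choice and is no finding. Only Glyma12g37050 and Glyma09g00490 are assigned to a family in the study's text. The families of the other 8 were read from the order and wording in which the genes were listed, together with the families of the study's pathway scheme. This assignment was not tested, and the family sums below rest on it. All 10 were found, each with a single entry, and all reached 1 FPKM at some time point. RNA came from embryonic axes (which carry the primordia of shoot, hypocotyl and radicle) of cultivar BRS 284, taken from dry seeds and from seeds imbibed in water for 3, 6, 12 or 24 hours (HAI, hours after imbibition). Each of the 5 time points was sequenced in 2 biological replicates made of axes pooled from several seeds, and by their labels the groups differ only in time since imbibition. A whole axis holds several tissues, so fewer cells of a type and less RNA per cell cannot be told apart.

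Ethylene is a gaseous hormone that promotes germination in many species and counteracts abscisic acid. In Arabidopsis its receptors sit in the membrane of the endoplasmic reticulum and are active when no hormone is bound, when they keep the kinase CTR1 working. CTR1 phosphorylates EIN2 and thereby silences the pathway. Ethylene binding switches the receptors off, EIN2 is released, and the transcription factor EIN3 accumulates in the nucleus. EBF1 and EBF2 are the F-box subunits of ubiquitin ligases that mark EIN3 for degradation, so all 3 families act as brakes on the response.

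The values are FPKM, sequenced fragments counted relative to the length of a transcript and to the number of mapped reads. Both replicates of a time point were merged into 1 value per gene before deposit. Errors between replicates are therefore unknown, tests were not possible, and the values hold no read counts, so no interval is given. The order of neighbouring levels given below is therefore a description. A gene is counted as up- or down-regulated when its FPKM differed at least 2.4-fold between the time points and reached 1 FPKM in either. FPKM summed over all genes was 1.90 times as high in dry seeds as at 12-HAI, so changes over time depend on how the time points are scaled to each other, whereas ratios between genes at the same time point are the same under any scaling that multiplies all of its values.

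One receptor could not be measured on its own. Glyma12g37050, an ETR1 gene on chromosome 12 from 40021120 to 40027108 (minus strand, G. max genome version 1.1), has exactly the same 5 values as its neighbours Glyma12g37040, Glyma12g37033 and Glyma12g37026. These 4 loci lie in a row on the same strand, the outermost starting at 40000889, and Glyma12g37040 ends at 40017788, before Glyma12g37050 begins. How the authors' software assigned this value is not given in the sources used here. The identical numbers do not separate this ETR1 gene from the other 3 loci, so below they are called the value of the block, and the share that belongs to the receptor is unknown. Among the 33358 genes that reach 1 FPKM, 4605 (13.8%) share all values with another gene, and 44 such sets hold 4 or more genes. None of the other 9 genes described here shares its 5 values with another locus.

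Of the 4 receptor entries, the block holding Glyma12g37050 and the ETR1 gene Glyma09g00490 had the narrowest ranges. For the block holding Glyma12g37050 the dry value was 70.3 FPKM, followed by 64.2 (3-HAI), 62.8 (6-HAI), 83.8 (12-HAI) and 43.6 (24-HAI) FPKM. Its highest value was 1.92 times its lowest, and at every time point it lay above 92.5% or more of the expressed genes. The second ETR1 gene, Glyma09g00490 on chromosome 9 from 215957 to 223116, had 19.3, 10.9, 17.2, 14.6 and 10.3 FPKM at the same time points. It was highest in dry seeds and lowest at 24-HAI, a ratio of 1.87, and stayed above 10 FPKM throughout. As deposited, neither differed 2.4-fold between any of the time points, and after median-ratio scaling Glyma09g00490 was 2.55 times lower at 24-HAI than in dry axes. The block value was between 3.64 and 5.89 times that of Glyma09g00490.

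The remaining receptor genes both rose to 3-HAI and then parted, Glyma19g40090 being higher and Glyma20g36440 lower at 12-HAI than at 3-HAI. Glyma19g40090, on chromosome 19 from 46547961 to 46552836, began at 2.56 FPKM in dry seeds and passed through 7.77 (3-HAI) and 21.9 (6-HAI) to 49.1 (12-HAI) and 44.2 (24-HAI) FPKM. It was counted as up-regulated from dry to 3-HAI (3.03-fold) and again from 3-HAI to 6-HAI (2.82-fold), went up another 2.24-fold to 12-HAI, just under the limit, and stood 17.2 times higher at 24-HAI than in dry seeds. The first of these steps was 3.73-fold with the totals of all time points made equal. It was 2.30-fold after median-ratio scaling and 1.87-fold after quantile normalization, under the limit in both. The step from 6-HAI to 12-HAI became 2.85-fold with equal totals and 3.01-fold after quantile normalization. The rise over the whole day was 12.6-fold or more under each of the 3 scalings tried.

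Glyma20g36440, on chromosome 20 from 44547822 to 44552879, had an early peak instead. From 12.7 FPKM in the dry axes it reached 74.5 (3-HAI), then declined through 36.7 (6-HAI) and 26.3 (12-HAI) to 4.15 FPKM (24-HAI). It rose 5.88-fold in the first interval and decreased 6.33-fold in the last, both past the limit, also under each of the 3 other scalings. From its peak to 24-HAI the value decreased 17.9-fold. Between dry seeds and 24-HAI it was 3.05 times lower, or 1.76 times lower, short of the limit, with the totals of all time points made equal. In dry seeds Glyma20g36440 exceeded Glyma19g40090 4.94-fold. At 24-HAI the order was reversed, Glyma19g40090 being 10.6 times as high.

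**Figure D1:**
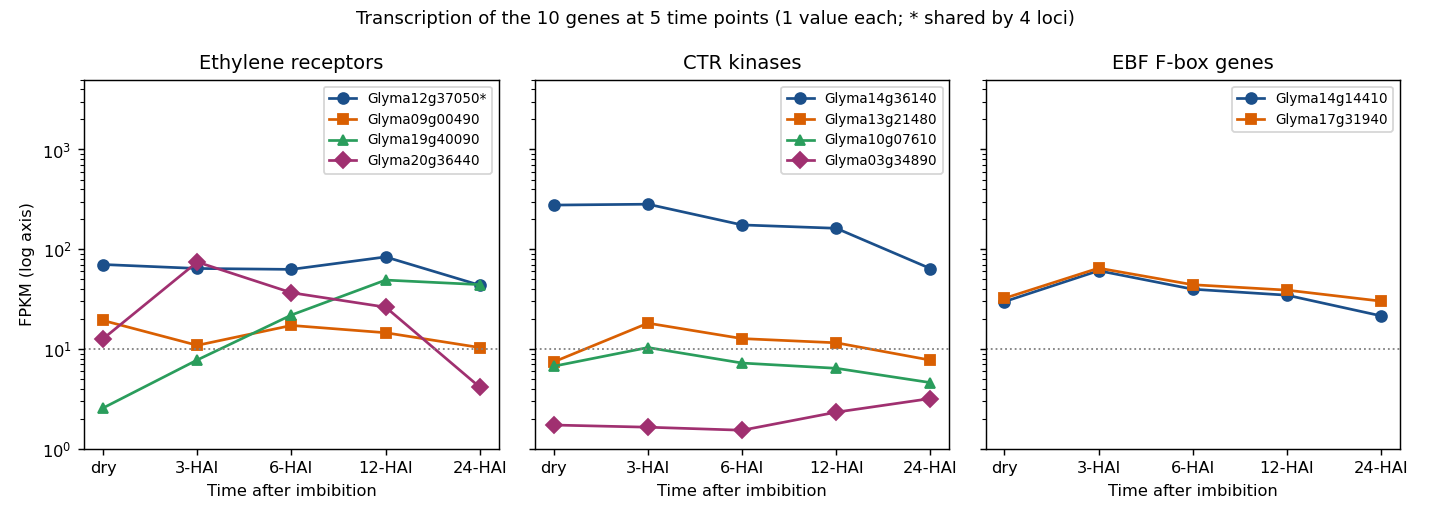
FPKM on a log axis of the 4 receptor, 4 CTR and 2 EBF genes at the 5 time points, 1 value per gene and time point without error, with a dotted line at 10 FPKM. The lines of Glyma19g40090 and Glyma20g36440 cross between 6-HAI and 12-HAI, Glyma14g36140 lies above all other genes shown at every time point, and the EBF genes run side by side.

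The make-up of the transcripts of the 4 listed receptor genes changed over time, while the change of their sum depends on how the time points are scaled. Receptor sums and shares here cover these 4 genes only. Glyma10g33240, a further ethylene receptor described below, is not in them and reached 22.3 FPKM at 12-HAI. As deposited, the 4 receptors summed to 104.9 FPKM in dry axes and to 157.3 (3-HAI), 138.6 (6-HAI), 173.7 (12-HAI) and 102.3 (24-HAI) FPKM later. The block with Glyma12g37050 gave 67.1% of the sum in dry seeds and between 40.8% and 48.2% afterwards. Glyma20g36440 went from 12.1% in dry seeds to 47.4% at 3-HAI and was down to 4.06% at 24-HAI. Glyma19g40090 gave 2.45%, 4.94%, 15.8%, 28.3% and 43.2% in the order of the time points, so that at 24-HAI it nearly equalled the block, which was 0.987 times as high. Because the share of Glyma12g37050 in its block is unknown, the shares were also taken over the other 3 receptors, a choice made after seeing the data. Glyma20g36440 then gave 80.0% at 3-HAI, and Glyma19g40090 gave 75.3% at 24-HAI.

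Of the CTR kinase genes, 1 supplied most of the summed FPKM at every time point. Glyma14g36140, on chromosome 14 from 45285659 to 45293206, started from 277 FPKM when dry, held 283 (3-HAI), and was then at 175 (6-HAI), 162 (12-HAI) and 64.0 (24-HAI) FPKM. It exceeded 98.6% of the expressed genes in dry seeds and 95.2% of them at 24-HAI. The step from 12-HAI to 24-HAI was a 2.53-fold decrease and the only one past the limit. Over the whole day it decreased 4.33-fold, and 2.50-fold with equal totals, which is still past the limit.

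The other CTR genes were far lower. Glyma13g21480, on chromosome 13 from 25041603 to 25051364, went from 7.43 FPKM when dry to 18.2 (3-HAI) and back through 12.7 (6-HAI) and 11.5 (12-HAI) to 7.74 FPKM (24-HAI). Its 2.44-fold rise to 3-HAI barely passed the limit. It was 3.01-fold with equal totals, 1.85-fold after median-ratio scaling and 1.84-fold after quantile normalization. In the same order the values of Glyma10g07610 (chromosome 10, 6360210 to 6370081) were 6.72, 10.3, 7.23, 6.41 and 4.60 FPKM. It was also highest at 3-HAI, 1.54 times its dry value, and passed the limit in no interval.

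Glyma03g34890, on chromosome 3 from 42190354 to 42203382, was the lowest of the 10 genes at every time point, with 1.73, 1.65, 1.53, 2.33 and 3.19 FPKM. Among the CTR genes it was the only 1 with its highest deposited value at 24-HAI. Its value there was 1.84 times that in dry seeds, 3.19 times with equal totals and 0.735 times after quantile normalization, so no direction is given for it. Relative to Glyma14g36140 it was 160 times lower in dry seeds and 20.1 times lower at 24-HAI. Glyma14g36140 gave 94.6% of the CTR sum in dry axes and 90.4%, 89.1%, 88.9% and 80.5% of it at the later time points.

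The EBF genes had nearly the same profile. Glyma14g14410, on chromosome 14 from 14447351 to 14451121, showed 29.8 FPKM when dry and 60.9 (3-HAI), 39.8 (6-HAI), 34.6 (12-HAI) and 21.5 (24-HAI) FPKM after imbibition. Glyma17g31940, on chromosome 17 from 35143570 to 35147285, had 32.3, 64.7, 44.1, 38.9 and 30.2 FPKM. Both were highest at 3-HAI and stayed above 10 FPKM throughout. Their values at 3-HAI were 2.04 and 2.01 times those in dry seeds, under the 2.4-fold limit. With equal totals the ratios were 2.52 and 2.47, past it, and after median-ratio scaling they were 1.55 and 1.52. The ratio of Glyma14g14410 to Glyma17g31940 ran from 0.890 to 0.942 until 12-HAI and was 0.712 at 24-HAI. Whether reads shared by close paralogs were divided between them could not be traced.

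**Figure D2:**
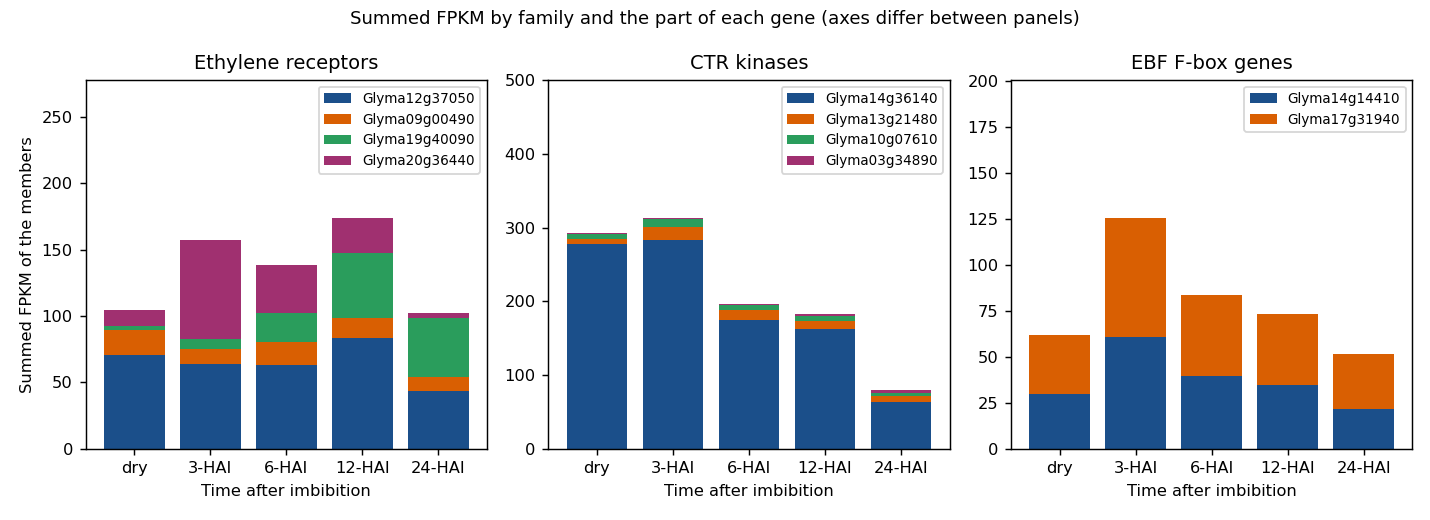
Summed FPKM of the listed genes of each family at the 5 time points, each bar starting at 0 and divided by gene, with a separate axis for each family. The receptor bars change their composition, from 67.1% for the block with Glyma12g37050 in dry seeds to 43.2% for Glyma19g40090 at 24-HAI, whereas Glyma14g36140 fills most of every CTR bar.

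The CTR sum decreased relative to the receptor sum, and which sum moved more differed between intervals. As deposited, Glyma14g36140 went from 277 to 283 FPKM from dry to 3-HAI, while the receptor sum rose from 104.9 to 157.3 FPKM. From 6-HAI to 12-HAI the gene went from 175 to 162 FPKM and the receptor sum from 138.6 to 173.7 FPKM. Between dry axes and 24-HAI the receptor sum was nearly equal (104.9 and 102.3 FPKM), and Glyma14g36140 decreased from 277 to 64.0 FPKM. The CTR sum was 293 FPKM in dry axes and 313, 197, 182 and 79.5 FPKM at the later time points. Divided by the receptor sum of the same time point it was 2.79, 1.99, 1.42, 1.05 and 0.777, lower at each time point than at the one before. These ratios are the same under the scalings that multiply a whole time point, and were 2.39 in dry seeds and 0.742 at 24-HAI after quantile normalization. The ratio of Glyma14g36140 alone to the receptor sum was 2.64 in dry axes and 0.625 at 24-HAI. Without this gene, a choice made after seeing the data, the other 3 CTR genes together gave 0.151 times the receptor sum in dry axes and 0.152 times at 24-HAI, with values between 0.117 and 0.192 in between. Without Glyma12g37050, which carries the block value, the ratio was 8.48 in dry seeds and 1.35 at 24-HAI. The EBF sum lay between 0.423 times the receptor sum, at 12-HAI, and 0.798 times, at 3-HAI.

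By interval, between 0 and 3 of the 10 genes passed the limit. From dry to 3-HAI 3 genes were up-regulated (Glyma19g40090, Glyma20g36440 and Glyma13g21480) and 0 down-regulated, where 14.4% of all 26646 genes with at least 1 FPKM at either time point were up-regulated and 1.65% down-regulated. From 3-HAI to 6-HAI 1 gene was up-regulated, Glyma19g40090, against 7.18% of all genes, and 0 were down-regulated (0.834% of all). From 6-HAI to 12-HAI 0 genes passed in either direction, against 8.5% up and 3.66% down of all genes. From 12-HAI to 24-HAI 0 were up-regulated (16.9% of all) and 2 down-regulated (9.41% of all), Glyma20g36440 and Glyma14g36140. With 10 genes, a count of 1 or 2 is close to these background shares. The count of 3 was above its share of 14.4%, but was 5 with equal totals and 1 after median-ratio scaling or quantile normalization. Nothing about the families as a whole is read from these counts.

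The median change of the 10 genes differed in size from that of all genes in each interval. On the log2 scale after adding 1 FPKM to each value, which understates the change of low genes, the median of the 10 genes was 0.77 from dry to 3-HAI, -0.47 to 6-HAI, -0.14 to 12-HAI and -0.49 to 24-HAI. Over all genes with at least 1 FPKM at either time point the medians were 0.15, -0.09, -0.02 and 0.04. The highest deposited value fell at 3-HAI for 6 of the 10 genes, as it did for 20.1% of the expressed genes, and the lowest at 24-HAI for 7, as for 34.3%. Under the 3 other scalings the highest value fell at 3-HAI for 5 or 6 of the 10 genes, but the lowest fell at 24-HAI for only 2 of them with equal totals, 5 after quantile normalization and 8 after median-ratio scaling.

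**Figure D3:**
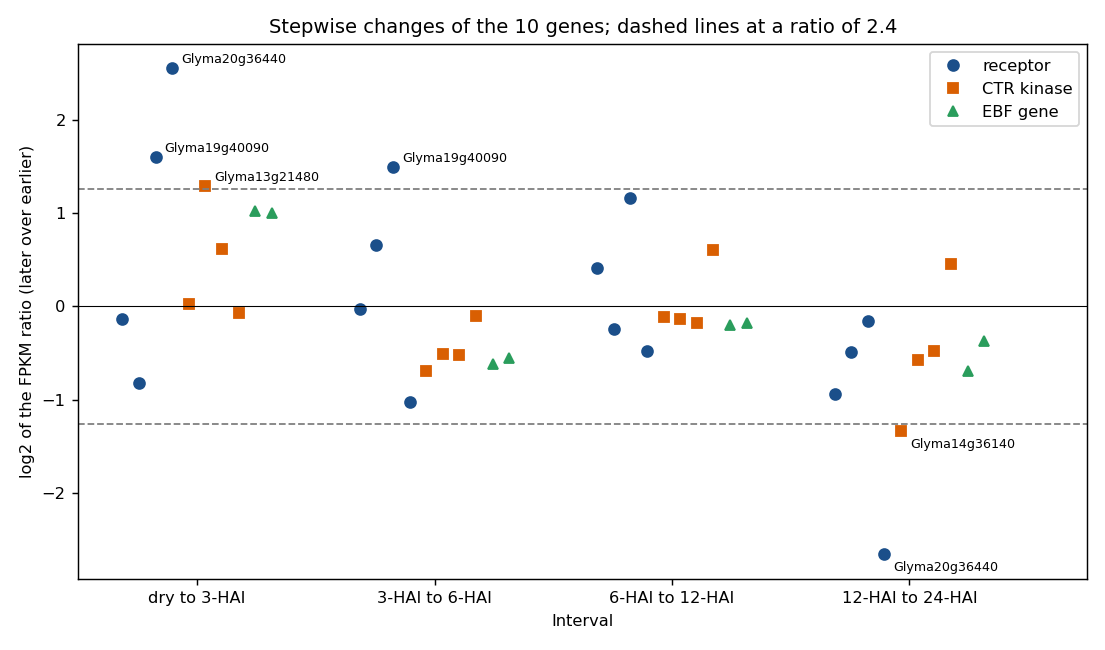
Log2 of the FPKM ratio of each of the 10 genes over the 4 successive intervals, 1 point per gene, with dashed lines at a ratio of 2.4 in either direction. Of the 40 points, 6 lie beyond the lines and are labelled, among them Glyma20g36440 with a 5.88-fold rise in the first interval and a 6.33-fold decrease in the last.

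The range over the whole series was taken on the deposited values first. The ratio of the highest to the lowest FPKM had a median of 2.35 over the 10 genes and of 4.17 over all 33358 expressed genes. No constant was added before dividing, and 1169 of the expressed genes were listed at 0 at some time point. The expressed genes were not matched to the 10 genes in level. A part of level in this difference was not tested. It was at least 2.4 for 5 of the 10 genes and for 73.4% of the expressed genes. In a comparison added after seeing the data it was at least 2.4 for 7 of the 10 genes with equal totals (77.6% of the expressed genes), 6 after median-ratio scaling (74.2%) and 4 after quantile normalization (70.9%). Glyma19g40090 (19.1-fold) and Glyma20g36440 (17.9-fold) lay above 80.1% and 79.4% of the expressed genes, Glyma14g36140 (4.42-fold) near the middle, and the other 7 genes, between 1.87-fold and 2.83-fold, had a wider range than at most 34.3% of them. Above 10 FPKM at every time point were 5 of the 10 genes (Glyma12g37050 by the value of its block, Glyma09g00490, Glyma14g36140 and both EBF genes), compared with 20.3% of the expressed genes. The study describes both ETR1 genes as highly transcribed throughout, and CTR1 and EBF1 as highly transcribed. A high level was therefore partly in the choice, and this count is no finding. Glyma09g00490, at 10.3 FPKM at 24-HAI, was under 10 FPKM at some time point with equal totals or median-ratio scaling.

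**Figure D4:**
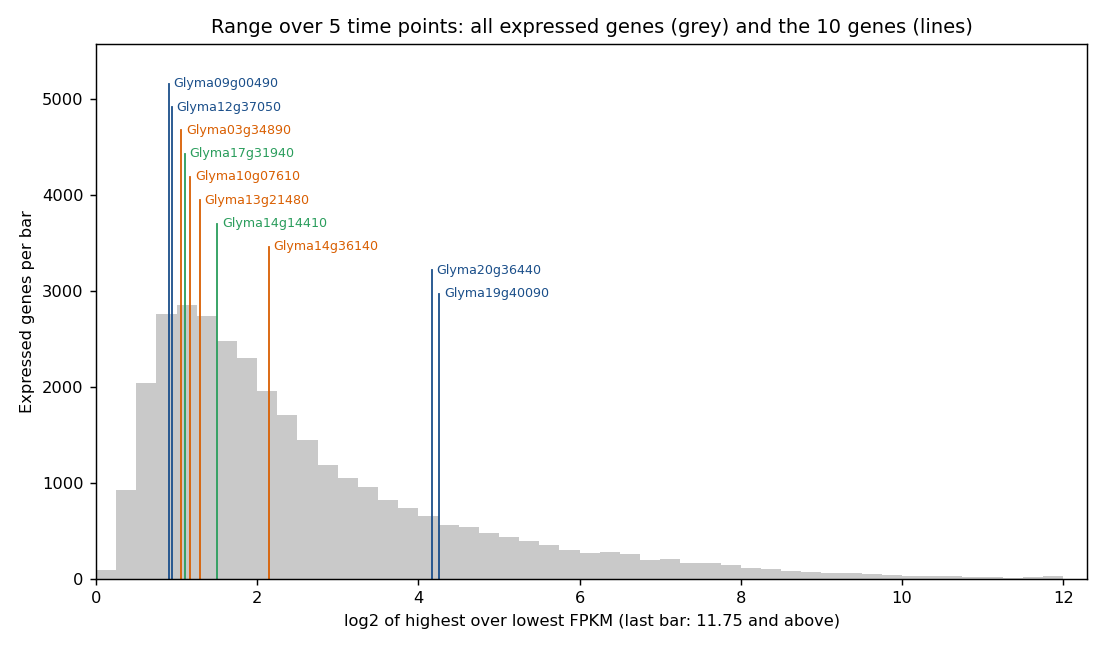
Histogram of the log2 ratio of highest to lowest FPKM over the 5 time points for the 32189 expressed genes above 0 at every time point (grey bars, left axis from 0), with a vertical line for each of the 10 genes, coloured by family (blue receptor, orange CTR, green EBF). The lines of Glyma20g36440 and Glyma19g40090 stand apart to the right at 17.9-fold and 19.1-fold, and the lengths of the lines only place the names.

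Between dry seeds and 24-HAI, 1 of the 10 genes was up-regulated (39.4% of all genes with at least 1 FPKM at either time point) and 2 were down-regulated (22.2% of all). The median log2 change of the 10 genes was -0.46, and that of all these genes was 0.42. The median of the 10 genes was 0.26 with equal totals, -0.87 after median-ratio scaling and -0.25 after quantile normalization, so its sign depends on the scaling. Scaling all time points to the same total moved the median of the expressed genes by 0.59, median-ratio scaling by -0.34 and quantile normalization by -0.37. Glyma19g40090 was higher and Glyma20g36440, Glyma14g36140 and Glyma09g00490 were lower at 24-HAI under all of them. For Glyma09g00490 the difference was only 1.08-fold with equal totals, and errors between replicates are unknown. The other 6 genes, among them both EBF genes and the block with Glyma12g37050, changed sign under at least 1 scaling, so no direction between the ends of the series is given for them.

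**Figure D5:**
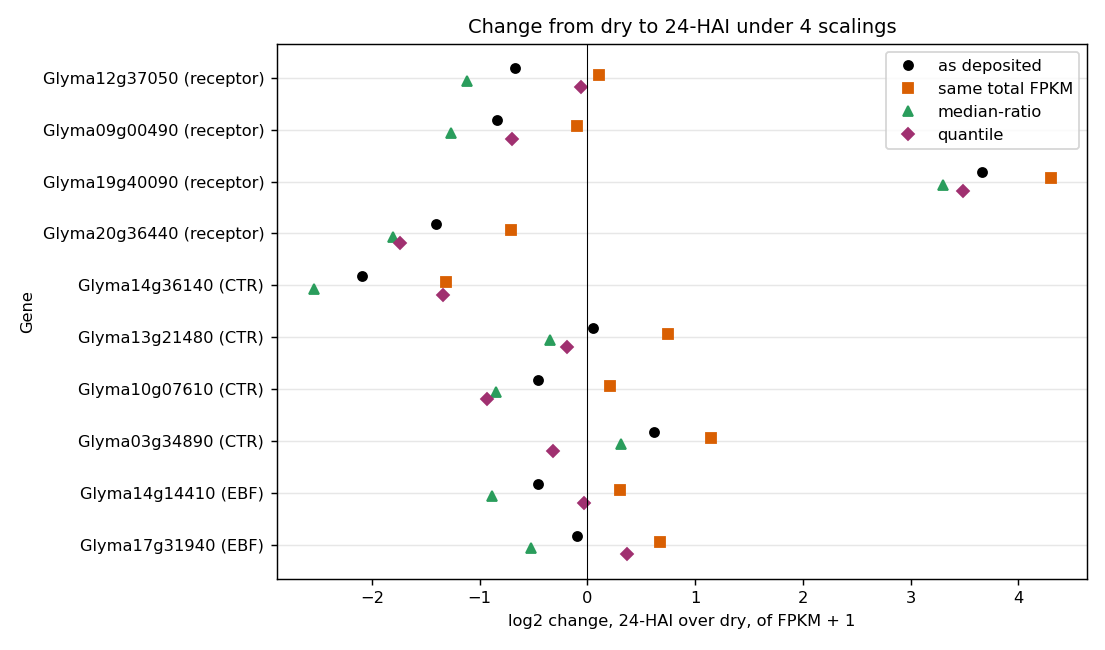
Log2 change from dry to 24-HAI of FPKM + 1 for each of the 10 genes, as deposited (black circles) and after 3 other scalings of the time points. Glyma19g40090 lies between 3.30 and 4.30 under all of them and Glyma14g36140 between -2.54 and -1.31, while the points of 6 genes fall on both sides of 0.

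No gene next to these 10 overlapped any of them, counting the nearest locus on either side. Downstream of Glyma13g21480 lies Glyma13g21490, 2581 bases on and on the same strand, and downstream of Glyma10g07610 lies Glyma10g07620, 1696 bases on and also on the same strand. Both neighbours were highest at 3-HAI, like the CTR genes beside them. Glyma13g21490 had 3.79 FPKM in dry seeds, 85.1 at 3-HAI and 2.37 at 24-HAI, and Glyma10g07620 had 9.12, 55.0 and 2.17 FPKM. Their changes to 3-HAI, 22.5-fold and 6.03-fold, exceeded those of the CTR genes. Glyma14g36130, 2004 bases from Glyma14g36140 and on the same strand, was also highest at 3-HAI (33.7 FPKM), as that CTR gene was as deposited. Glyma03g34900, 1278 bases from Glyma03g34890 and on the same strand, was highest at 3-HAI too (54.0 FPKM). Its CTR gene went the other way, lowest at 6-HAI and highest at 24-HAI as deposited. The nearest locus on the other side was highest at 3-HAI beside Glyma13g21480 and at 12-HAI beside Glyma10g07610. It was highest in dry seeds beside Glyma03g34890 and at 24-HAI beside Glyma14g36140. Of all expressed genes, 20.1% were highest at 3-HAI. The named neighbours were singled out after their values were seen, and what they encode is not given in the sources used here. A part of reads from one locus counted in the other was not tested.

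Another 9 ethylene genes served for comparison. Glyma10g33240, named as a further ethylene receptor, was at 0.745 FPKM when dry and at 11.9, 22.2, 22.3 and 14.7 FPKM from 3-HAI to 24-HAI. Like Glyma19g40090 it was lowest in dry seeds. Its values at 6-HAI and 12-HAI were nearly equal, and the higher of them was that at 6-HAI after median-ratio scaling. At 24-HAI it was 3.01 times lower than that gene. The ethylene response factor gene Glyma02g08835, whose product would act at the end of the pathway, was highest at 3-HAI, as Glyma20g36440 and the EBF genes were. Another 7 genes were listed as ACC oxidases, the enzyme that makes ethylene. The study's text gives no identifiers for its ACC oxidase genes, and this assignment was not tested. All 7 were up-regulated between dry seeds and 24-HAI, when they ranged from 2.65 FPKM in Glyma02g43560 to 178 FPKM in Glyma06g12340. Together 8 of these 9 genes were up-regulated over that span and 1 down-regulated, where the shares of all genes were 39.4% and 22.2%. The study names Glyma10g33240 and Glyma02g08835 for their changes in these same data, and discusses ACC oxidase genes as differentially expressed. The comparison list was also chosen with earlier results known. These counts therefore partly follow from the choice and are no finding.

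For the gene with the highest mean level in each family, the genes most like it were found by the Euclidean distance of log2(FPKM + 1) over the 5 time points, among genes that reach 10 FPKM. Nearest to the block with Glyma12g37050 were Glyma11g12186 and Glyma11g12193, at a distance of 0.463 from it and with identical values to each other. Nearest to Glyma14g36140 were Glyma19g41760 and Glyma19g41770, at 0.672 and again identical to each other. Glyma17g31940 was nearest to Glyma17g00630 (0.223) and Glyma15g04030 (0.237), and its partner Glyma14g14410 came at place 62 of 17848 genes, at 0.538. No other receptor came closer to the block than place 7108 of 17845, that of Glyma20g36440. This distance counts differences in level as well as in course, so it does not compare the courses alone. The second ETR1 gene, Glyma09g00490, came at place 8251, although the block value stayed between 3.64 and 5.89 times its value.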

How the data were processed

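Paired-end reads were trimmed by the authors (Trimmomatic 0.30) and aligned with TopHat 2.0.9 and Bowtie 2.1.0 to the soybean assembly of version 1.1, and FPKM per gene came from Cufflinks 2.1.1. The deposited FPKM table holds 1 value per entry and time point. The way of merging the 2 replicates is not given in the sources used here, and read counts were not used. The first base of a chromosome may be numbered 0 or 1, and distances assume 1. Values were read with Python 3.11.15 and pandas 2.3.3. Another 647 genes, none of them among the 10 described, are listed on both strands and were represented by the listing with the higher peak. With 1 value per time point no significance test was possible, and genes were counted by fold change. Alternatives were another pseudocount, no minimum, a 2-fold limit and 3 scalings of the time points. The 10 genes, the comparison list and the limits were chosen with earlier results of these data known, and the rule for named genes took all 10, the comparison list (of which 4 are named), loci with identical values and the 2 genes nearest to the leading gene of each family. Glyma13g21490, Glyma10g07620, Glyma14g36130 and Glyma03g34900 were named outside it. Of the 10 identifiers 0 matched the RefSeq gene table, so no sequences are shown, and 0 columns were left unmapped.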

Additional observations from a re-analysis of the deposited data

How the results depend on the processing

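No paired analysis was possible because each time point has a single deposited value, and for the same reason no replicate could be left out. Of 35 recomputed counts of genes that were reported above 0, 29 stayed within 1.5 times the reported one, and of 30 reported as 0, 26 were again 0. From dry to 3-HAI the 3 up-regulated genes became 5 with equal totals or a 2-fold limit (Glyma14g14410 and Glyma17g31940 added) and 1, Glyma20g36440, after median-ratio scaling or quantile normalization. The count of 0 up-regulated from 6-HAI to 12-HAI became 1 with equal totals, quantile normalization or the 2-fold limit, and that of 0 down-regulated from 3-HAI to 6-HAI became 1 with the 2-fold limit. From dry to 24-HAI equal totals gave 2 up-regulated in place of 1 and 1 down-regulated in place of 2. The log2 change from dry to 24-HAI reversed with equal totals for Glyma12g37050 (0.10), Glyma10g07610 (0.21), Glyma14g14410 (0.31) and Glyma17g31940 (0.67), with quantile normalization for Glyma13g21480 (-0.19), Glyma03g34890 (-0.32) and Glyma17g31940 (0.36), and with median-ratio scaling for Glyma13g21480 (-0.35). Leaving out Glyma12g37050, chosen after seeing the data, moved the CTR to receptor ratio to 8.48 in dry seeds and 1.35 at 24-HAI, and the share of Glyma20g36440 at 3-HAI to 80.0% and that of Glyma19g40090 at 24-HAI to 75.3%, and leaving out Glyma14g36140 moved the ratio to 0.151 in dry seeds and 0.152 at 24-HAI, by construction, since the sums then have fewer genes. The cause of the other moves was not tested. The values hold no read counts, so limits from depth could not be given.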
